A study of Homo sapiens with 2 samples.

Results

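The part of the genome described here is the distal end of the long arm of human chromosome 8, from position 119200000 on hg19 to the last TARBP2-bound region of the chromosome, which ended at 146092020. A region was counted in the segment when its midpoint lay at or beyond 119200000, on either strand. This rule took 274 of the 934 regions on chromosome 8 and of the 23412 on the list as a whole. Nearest the boundary, a minus-strand region at 119114812 to 119116372 lay 84.4 kb outside it and a minus-strand region at 119359012 to 119359229 lay 159 kb inside it.

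The regions came from MDA-LM2, a human breast cancer cell line selected for its spread to the lung. The cells carried a transiently transfected vector for myc-tagged TARBP2 and were UV cross-linked 48 hours later. RNA bound to the tagged protein was pulled down with an anti-myc antibody and sequenced by HITS-CLIP, which reads RNA fragments joined to a protein by ultraviolet light. There was 1 group of 2 replicates and no control library, and the labels do not say whether the replicates were separate cultures. All cells analysed carried the vector, so binding of TARBP2 at its normal level was not measured. The deposited list held 1 set of regions for the group, with a score of 1 for every region, so neither the depth behind a region nor the spread between replicates is known. The 95% exact intervals below cover counting error only, treat regions as independent, and are too narrow wherever neighbouring regions share a transcript. No test was made of the differences between the segment and other parts of the genome. With no levels of genes in the list, the identity of the line was not checked against marker genes.

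TARBP2 binds double-stranded RNA and is a partner of Dicer, the nuclease that cuts microRNA precursors, and it helps to load the product into Argonaute proteins. In metastatic breast cancer cells it is also known to bind structured stretches of messenger RNA and to lower the stability of those transcripts. The distal long arm of chromosome 8 is often present in extra copies in breast cancer. MYC, a transcription factor that drives growth, lies there. PVT1 is a long noncoding RNA gene that hosts microRNAs, ASAP1 encodes a regulator of Arf GTPases and of cell motility, and PTK2 encodes focal adhesion kinase. In the GENCODE 29 annotation, PVT1 follows MYC on the plus strand with no protein-coding gene starting between them. ASAP1 and PTK2 are on the minus strand there, and the protein-coding gene before PTK2 is AGO2, also on the minus strand, which encodes the Argonaute that cleaves target RNA. The annotation is on GRCh38 and the regions are on hg19, so it was used for gene order and strand alone and no region was assigned to a gene. Copy number and RNA levels were not measured in this list, and their part in the number of regions was not tested.

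The segment held more regions per unit length than the rest of the chromosome. Over its 26.9 Mb it had 10.2 regions per Mb, against 5.55 per Mb for the 660 regions in the 119 Mb before it. The ratio was 1.84, with a 95% exact interval of 1.59 to 2.12. Chromosomes 1 to 22 and X together had 7.96 regions per Mb, so the segment lay above that value and the rest of chromosome 8 below it. The regions covered 3.76 kb of each Mb in the segment, 1.80 kb in the rest of the chromosome and 2.78 kb over all chromosomes.

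Regions per Mb were higher than in the rest of the chromosome on each strand. The minus strand held 187 regions, or 6.95 per Mb against 3.57 in the rest of the chromosome, a ratio of 1.95 (1.63 to 2.32). The plus strand held 87 regions, or 3.24 per Mb against 1.97, a ratio of 1.64 (1.27 to 2.10). The intervals of these ratios overlap. Over all chromosomes there were 4.85 minus-strand and 3.115 plus-strand regions per Mb. The segment was thus above the whole list mainly on the minus strand. Of the 87 plus-strand regions, 33 lay in 1 stretch described below. Outside same-strand stretches of at least 10 regions, as defined there, the plus strand had 2.01 regions per Mb in the segment and 1.97 in the rest, a ratio of 1.02 (0.742 to 1.37), and the minus strand 4.35 and 3.02, a ratio of 1.44 (1.16 to 1.78). Such stretches were picked for many regions close together, so leaving them out lowers density by itself. The rest had no such stretch on the plus strand and kept all its 235 plus-strand regions, so the fall of the plus-strand ratio was built in. Spans were not shortened for the stretches left out, and these values are descriptive only. Of all regions, the minus strand carried 68.2% in the segment (62.4 to 73.7%), 64.4% in the rest of chromosome 8 (60.6 to 68.1%) and 60.9% over all chromosomes (60.3 to 61.5%). For the part of the segment from MYC onward, GENCODE 29 lists 124 protein-coding genes, of which 59.7% are on the minus strand, against 52.7% of the 683 on the whole chromosome. The share is 74.1% of the 27 genes from MYC to PTK2 and 55.7% of the 97 beyond PTK2. Genes of the segment before MYC were not counted, and a link between the strand of genes and that of regions was not tested.

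The regions were gathered in a few places. Of the 27 windows of 1 Mb counted from the segment start, the last of them shorter, 4 held 160 of the 274 regions (58.4%, 52.3 to 64.3%). The fullest were the windows from 141200000, with 50 minus-strand regions and 1 plus-strand region, and from 144200000, with 38 minus-strand and 13 plus-strand regions. The window from 128200000 followed with 33 plus-strand and 2 minus-strand regions. The last window, from 145200000 to the final region, held 15 minus-strand and 8 plus-strand regions, and the fifth in order, from 124200000, held 14 and 3. Each of the other 22 windows held 1 to 16 regions, and no window was empty.

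**Figure D1:**
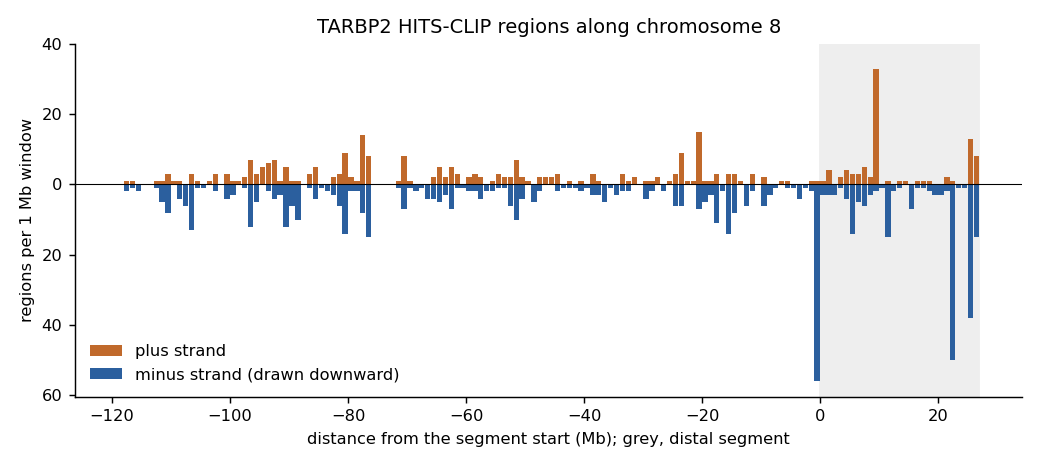
Number of regions in each 1 Mb window of chromosome 8 against the distance of the window from the segment start in Mb, with plus-strand regions drawn upward and minus-strand regions downward. In the grey segment, 4 windows held 160 of 274 regions, and the tallest bar outside it, with 56 minus-strand regions, is in the window that ends at the segment start.

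The middle window held as many regions inside the segment as outside it. The median was 4 regions per window in the segment and 4 in the 119 windows of the rest of the chromosome, while the upper quartiles were 9.5 and 6. In the rest of the chromosome 11 windows were empty, among them an unbroken block from 43200000 to 47199999. Unassembled sequence, where no read can align, was not taken out of the windows. Without its 4 fullest windows the segment had 114 regions, or 4.96 per Mb. Leaving the 4 fullest windows out of the rest as well gave 4.65 per Mb there, and a ratio of 1.07 (0.863 to 1.31). These 4 windows are 14.8% of the windows of the segment and a much smaller part of the rest. When the 18 fullest windows of the rest were left out, 15.1% of its windows, the rest had 3.24 regions per Mb and the ratio was 1.53 (1.23 to 1.90). Those 18 windows held 50.5% of the regions of the rest.

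The fullest 1 Mb window of the chromosome lay just outside the segment. The window from 118200000 to 119199999 held 56 minus-strand regions and 1 plus-strand region. With the segment start moved 1 Mb lower, so that this window was included, the ratio of densities was 2.32.

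Along the segment, density by 5 Mb step was highest in the last step, which was shorter than the others. Among the windows of 1 Mb the last, also shorter, held 23 regions, against 51 in each of the 2 fullest. In steps of 5 Mb from the segment start there were 5, 15.2, 4.4, 3.4 and 12 regions per Mb, and the last step, of 1.89 Mb from 144200000, had 39.1 per Mb. That last step held 74 regions, 53 of them on the minus strand, with a median length of 408.5 nt. GENCODE 29 lists 27 protein-coding genes from MYC to PTK2 and 97 beyond PTK2, so most of the protein-coding genes it lists from MYC onward follow PTK2. The bounds of these blocks were not matched to the steps, and a link between gene number and density was not tested. The longest stretch with no region on either strand ran for 1189 kb, from 135729813 to 136918944. The next ran for 1109 kb, from 142892014 to 144000565, between the 2 fullest windows of the segment. The other 3 of the 5 longest ran from 122666949 to 123596163, from 138909285 to 139815426 and from 132235085 to 133129065, for 894 to 929 kb.

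To describe the dense places without a gene annotation, regions that followed one another on the same strand with no region of the other strand between them and no gap over 50 kb were joined into stretches. The segment had 118 stretches, and 3 of them held at least 10 regions. These 3 held 103 regions, or 37.6% of the segment (31.8 to 43.6%), against 9.85% in such stretches in the rest of chromosome 8 (7.68 to 12.4%) and 18.3% over all chromosomes. Each of the 3 held at least 25 regions. The rest of the chromosome had 1 stretch of that size, and all chromosomes together had 30.

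The longest stretch lay on the minus strand from 141583159 to 142004992 and held 43 regions over 422 kb, with a median length of 330 nt. Only 5 of the 12304 stretches on chromosomes 1 to 22 and X held more regions. The quartiles of its gaps between neighbours were 999 and 11959 nt, and 11 of 42 gaps were under 1000 nt. Its largest group of regions separated by at most 10 kb, from 141605439 to 141631213, held 11 that covered 21.8% of the sequence. The longest region of the stretch, of 1117 nt at 141619503 to 141620619, lay in that group, as did a region of 1074 nt at 141627086 to 141628159. Groups of 6 regions lay at 141665183 to 141690815 and, at the far end, at 141997744 to 142004992. A group of 5 regions at 141918978 to 141923568 was more closely packed, with 37.4% of its sequence covered.

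The largest plus-strand stretch ran from 128808775 to 129075918 and held 33 of the 87 plus-strand regions of the segment. It spanned 267 kb, with a median length of 329 nt. Its largest group was at its start, where 9 regions lay between 128808775 and 128834990 and covered 15.7% of the sequence. Another 7 lay between 128845084 and 128870045. Smaller groups further on were packed more closely, such as 3 regions at 128969893 to 128971963 that covered 61.6%. The longest region of the whole segment, of 1392 nt at 129041094 to 129042485, lay towards the other end and had no same-strand region within 10 kb. A region of 1092 nt lay before it at 129027733 to 129028824. Like the minus-strand stretch above, this one was spread thinly, covering 5.35% of its span against 4.11% there.

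The third stretch was more compact. On the minus strand from 144967928 to 145045705, 27 regions lay within 77.8 kb and covered 18.9% of it. The regions were longer than in the other two, with a median of 463 nt, a lower quartile of 392 nt and an upper quartile of 706 nt, and 11 of the 27 were longer than 500 nt. The median gap was 1269 nt, against 3665 nt and 4970 nt in the other two. With regions joined at gaps of at most 10 kb, it fell into a group of 19 from 144967928 to 145015798, the largest such group of the segment, and a group of 8 from 145026580 to 145045705. The second-longest region of the segment, of 1301 nt at 145043551 to 145044851, lay in the group of 8.

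**Figure D2:**
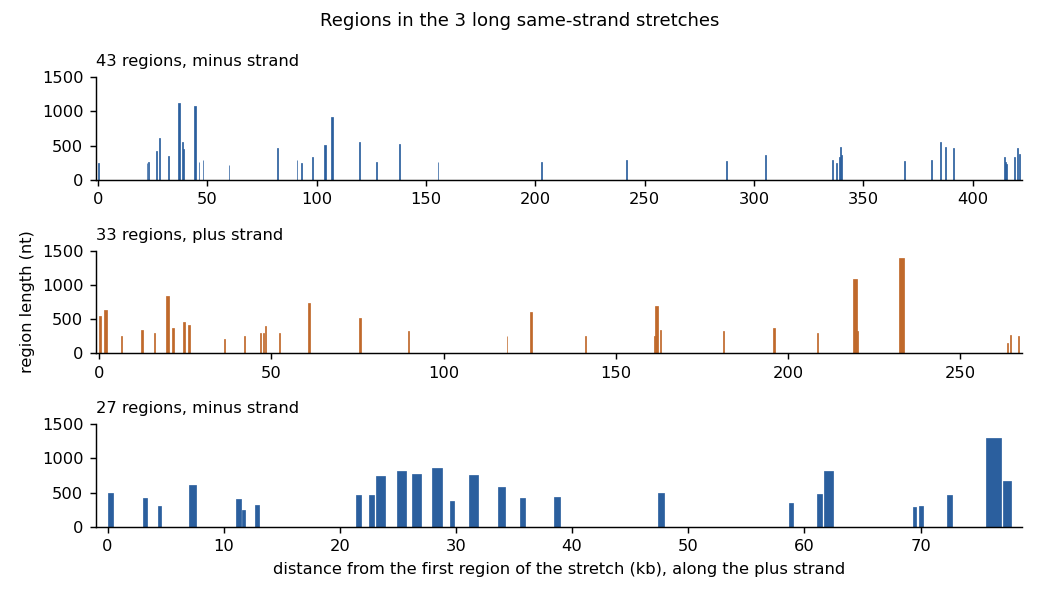
Length in nt of each region (bar height; bar width is the region's extent) against distance in kb from the first region of each of the 3 longest same-strand stretches. The stretches hold 43, 33 and 27 regions over 422, 267 and 77.8 kb, so the horizontal scales differ.

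Joining same-strand regions at gaps of at most 10 kb gave 175 groups, 147 of which were single regions. Groups of at least 5 regions numbered 11 and held 87 regions, or 31.8% of the segment (26.3 to 37.6%). The same share was 10.8% in the rest of chromosome 8 (8.50 to 13.4%), in 7 groups, and 20.1% over all chromosomes. The groups of at least 5 outside the 3 stretches were all on the minus strand. The most compact of the 11 held 6 regions in 4.69 kb, from 145628587 to 145633279, and they covered 54.0% of it. Another, from 144672481 to 144679099, held 5 regions that covered 50.8%, the longest being 1098 nt at 144672481 to 144673578. A group of 5 from 124384971 to 124401656 had the longest median of the 11, 628 nt, with a region of 1156 nt at 124400501 to 124401656. A same-strand neighbour within 1000 nt was present for 26.6% of the regions of the segment (21.5 to 32.3%), for 13.8% in the rest of the chromosome (11.2 to 16.7%) and for 19.6% over all chromosomes.

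Regions of the segment had a higher median length than those of the rest of chromosome 8. The shortest was 129 nt, the median 274 nt and the longest 1392 nt, with the quartiles at 249 and 422.5 nt. In the rest of the chromosome the median was 250 nt and the quartiles 246 and 325.5 nt. Over all chromosomes these values were 253 nt, 248 nt and 374 nt. Minus-strand regions of the segment had a median of 283 nt and plus-strand regions one of 271 nt. Regions over 1000 nt made up 2.55% of the segment (1.03 to 5.19%) and 1.97% of the rest (1.05 to 3.34%), so the longest regions were not distinguishable in frequency at this number of regions. The longest region of the rest, of 2312 nt, exceeded every region of the segment.

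**Figure D3:**
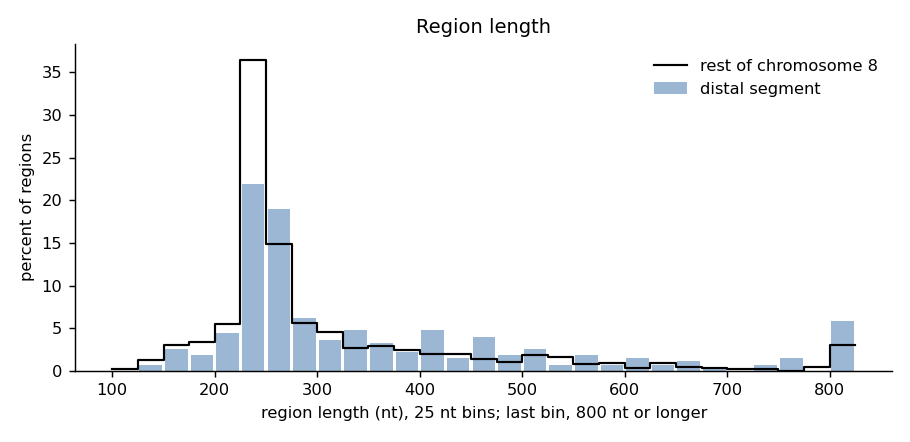
Percent of regions in each 25 nt bin of length for the distal segment (bars) and the rest of chromosome 8 (black line). Both have their peak near 249 nt, and the segment has a smaller share there and a larger share at 800 nt or longer.

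A length of exactly 249 nt is the most common on the whole list, and it was less frequent in the segment, at 14.2% of regions (10.3 to 18.9%), than in the rest of chromosome 8, at 21.2% (18.2 to 24.5%), or over all chromosomes, at 19.7%. The intervals of segment and rest overlap slightly. The direction turned without the 4 fullest windows of each, where the share was 26.3% in the segment (18.5 to 35.4%) and 23.6% in the rest (20.02 to 27.4%). With the 18 fullest windows of the rest left out in place of 4, it was 30.3% there (25.3 to 35.6%). Among minus-strand regions the share was 16.0% in the segment, 25.4% in the rest and 27.2% over all chromosomes. Among plus-strand regions it was 10.3% (4.84 to 18.7%), 13.6% and 8.21%, so there the segment was not below the whole list. Without regions of this length the median was 302 nt in the segment and 263.5 nt in the rest, so a difference in length was present among the other regions too. Within the segment the share followed the crowding of regions. It was 21.8% among regions with no same-strand neighbour within 10 kb (15.4 to 29.3%) and 2.30% among those in groups of at least 5 (0.280 to 8.06%). Median lengths in these classes were 250 nt and 419 nt. In the rest of the chromosome the corresponding medians were 249 nt and 416 nt, and over all chromosomes 249 nt and 405 nt. In groups of at least 5 the 249 nt share was 8.45% in the rest of the chromosome (3.16 to 17.5%), with an interval that overlaps that of the segment. In groups of 2 to 4 regions the medians were 283 nt in the segment, 310 nt in the rest and 284 nt over all chromosomes. Medians among lone regions and in groups of at least 5 were thus similar inside and outside the segment. The segment had a larger share of its regions in groups of at least 5.

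Away from the 3 long stretches, density and length in the segment were nearer to those of the rest of the chromosome, and the minus-strand share was not. Stretches of at least 10 were picked for many regions close together. They held 37.6% of the regions of the segment and 9.85% of those of the rest, with median lengths of 365 nt and 417 nt. Leaving them out therefore brings density and length together in part by construction, and the values below only describe the remaining regions. The 171 regions outside them had a median length of 251 nt and a 249 nt share of 20.5% (14.7 to 27.3%), against 249 nt and 22.9% (19.5 to 26.4%) for the 595 regions of the rest outside stretches of at least 10. They came to 6.36 per Mb against 5.00 in the rest, a ratio of 1.27 (1.07 to 1.51), and 6.51 outside such stretches over all chromosomes. When each stretch was counted once, the ratio was 1.21 (0.980 to 1.49). Their minus-strand share was 68.4% (60.9 to 75.3%), against 60.5% (56.4 to 64.5%) in the rest, with intervals that overlap. With the stretches included the shares were 68.2% and 64.4%, so the share of the rest changed more than that of the segment. All 65 regions of the rest in stretches of at least 10 were on the minus strand, so leaving them out lowers its share by itself.

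The names of the regions carry numbers that rise along each strand, and not all numbers are on the list. Between the first and last listed region of each strand, 1730 numbers fell in the segment, or 64.3 per Mb, against 50.0 per Mb in the rest of chromosome 8. Of these, 15.8% were listed in the segment (14.1 to 17.6%) and 11.1% in the rest (10.3 to 11.9%). Over all chromosomes there were 52.7 numbers per Mb and 15.1% were listed. The higher density of the segment was thus present both in the numbers, with a ratio of 1.29, and in the share of them listed. On each strand the listed share was higher in the segment than in the rest. For minus-strand numbers it was 17.7% (15.5 to 20.1%) against 12.3% (11.3 to 13.5%), and 16.1% over all chromosomes. For plus-strand numbers it was 12.9% (10.5 to 15.7%) against 9.37% (8.25 to 10.6%), with intervals that overlap slightly, and 13.8% over all chromosomes. In the 3 long stretches the listed share was 39.4%, 39.3% and 49.1%, in order of their number of regions. Stretches were picked for many listed regions close together, which raises this share by itself, so these values only describe them. The sources used here do not say what a number stands for.

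Regions on opposite strands rarely overlapped. Of the 87 plus-strand regions, 2 overlapped a minus-strand region, and both pairs lay beyond 144200000. At 144720610 to 144721266, a plus-strand region of 657 nt shared 65 nt with a minus-strand region of 249 nt. At 145214058 to 145214313, a plus-strand region of 256 nt shared 50 nt with a minus-strand region of 177 nt. The rest of chromosome 8 had 4 such plus-strand regions among 235.

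For scale, the segment was set beside all 97 windows of its own length laid end to end on chromosomes 1 to 22 and X, outside the segment itself. Chromosome ends shorter than a window were left out, and with them the 11.5 Mb of chromosome 8 that adjoin the segment and hold a stretch of 55 regions. The segment's density was above that of 80 of them, whose median was 6.80 regions per Mb and whose range was 2.79 to 22.8. Its minus-strand share was above that of 79, with a range of 46.3 to 77.8%, and its median length above that of 85. Its 249 nt share was below that of 93. Its longest stretch of 43 regions was exceeded in 4 windows, and the median window had a longest stretch of 12. The share of regions with a same-strand neighbour within 10 kb, 46.4% (40.3 to 52.4%), was above that of 66 windows. It was 44.8% over all chromosomes, within the interval of the segment, and 30.2% in the rest of chromosome 8. The segment thus lay in the upper part of the range for density and near the ends for its longest stretch and for the 249 nt share, but beyond the range for none of these measures.

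**Figure D4:**
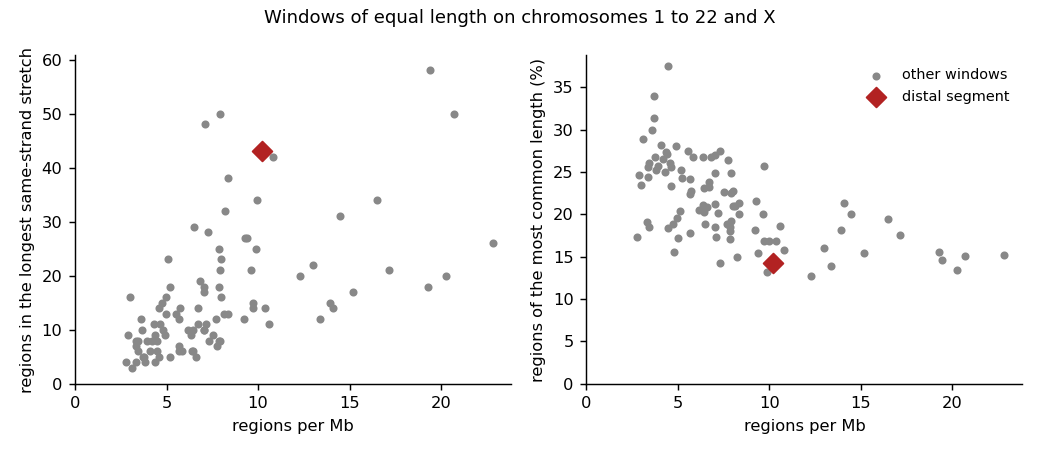
Number of regions in the longest same-strand stretch (left) and percent of regions of exactly 249 nt (right) against regions per Mb, for 97 windows of the segment's length (grey points) and the segment (red diamond). The segment, at 10.2 regions per Mb, has a stretch of 43 regions and a 249 nt share of 14.2%.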

How the data were processed

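TARBP2-bound regions of MDA-LM2 cells were read from 1 list for 2 replicates, grouped by their titles. Per the submitters' processing notes, the build was hg19 and the aligner Bowtie. The Bowtie version, the caller of regions, its filters, the use of the replicates and the handling of reads that align to several places are not stated in the sources used here, and they decide which regions are listed and how long they are. The score the authors deposited is 1 for every region and was not used. Starts were changed from 0-based to 1-based. Regions printed here may not be all those called.

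Spans ran from the first listed region to the segment start (rest of the chromosome) and from there to the last listed end. Unassembled sequence was not taken out of them. Shares have 95% exact Clopper-Pearson intervals, and ratios of densities an exact conditional binomial interval. Regions were joined at 10 kb into groups and, in order, at 50 kb into stretches. The loci named are the 10 groups with the most regions, the 5 longest regions, the 5 fullest 1 Mb windows, the 5 longest empty stretches and every overlap between strands. Other groups, regions and the stretches were named after their values were seen. Members and lists were chosen with earlier results of these data known. Genes are those the rule of the segment names, with their neighbours in GENCODE 29. No sequence is shown, since a genome of hg19 was not used here. The functions were tested on simulated data. The tools were scipy 1.17.1, numpy 2.4.6, pandas 2.3.3 and, for plots, matplotlib 3.10.9, under Python 3.11.15. Alternatives covered other subsets of regions, window choices, joining distances and segment starts.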

Additional observations from a re-analysis of the deposited data

How the results depend on the processing

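Of 23 alternative settings, 11 gave a value within the 95% interval of the main one or a count within 1.5 times of it. Those that leave out windows or stretches were chosen after the data had been seen, and they remove the densest places by construction. As a point value, the ratio of regions per Mb between the segment and the rest of chromosome 8, 1.84, was above 1 in each setting tried. It was 1.49 with each group counted once, 2.43 for regions no shorter than the median and 2.32 with the segment start 1 Mb lower. Without the 4 fullest windows of each it was 1.07, with an interval that includes 1 (0.863 to 1.31). It was 1.53 without the same share of windows and 1.27 outside stretches of at least 10 regions. With each stretch counted once, which is not among the 23 settings, it was 1.21, and the interval again includes 1 (0.980 to 1.49). The 249 nt share of 14.2% became 23.4% for lengths within 4 nt (29.7% in the rest) and 26.3% without the 4 fullest windows, where it was above the rest without its own 4 (23.6%) and below the rest without its 18 fullest (30.3%). The median length of 274 nt became 302 nt without regions of 249 nt (263.5 nt in the rest). A same-strand neighbour was present for 26.6% of regions within 1 kb and 54.4% within 20 kb (39.2% in the rest), by construction of the distance. The listed share of numbers became 13.6% with regions of 249 nt counted as not listed. Where construction does not show it, the cause was not tested. The minus-strand share of the segment kept within 64.6 to 71.9%. It was 66.8% without regions of 249 nt (61.0% in the rest) and 64.6% with each group counted once (60.5% in the rest). For regions no shorter than the median it was 70.2%, close to the 68.3% of the rest. At each joining distance, 10 to 12 groups of at least 5 regions were found. No paired analysis was possible because the list has no column per replicate and the study 1 group, and for the same reason no replicate could be left out. Depth is unknown.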
